A study of Mus musculus with 8 samples.

Results

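Cdh1, Cldn2 and Mylk3 are 3 of the 68 target genes on a NanoString panel that was run on RNA from whole mouse colon. They were taken by name, as an adhesion gene, a pore-forming claudin and a myosin kinase, by a rule that uses no measured value, although earlier results of these data were known when they were chosen. The mice were specific pathogen-free C57BL/6 animals of both sexes, 7 to 10 weeks old. For 1 week they received either the high salt diet, which was the control chow with 4% NaCl, or the control diet. RNA of 10 mice per diet was combined into 4 pools on each, a trio (mice 1, 2 and 3) and a pair (mice 4 and 5) of either sex, as the sample labels give them. The study's own figure legend counts mice per group instead, and here n counts the pools of the labels. Each pool averages 3 or 2 animals, so the spread between pools understates that between mice, and p-values measure the spread between pools. Whole tissue holds muscle, nerve and immune cells beside epithelium. Fewer cells of a type and less RNA per cell therefore cannot be told apart.

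The epithelium of the gut is a single sheet of cells held together by junctions at their sides. Adherens junctions, built on E-cadherin, hold neighbouring cells together. Tight junctions lie above them and set what passes between the cells. Claudins line that path, and most of them seal it, whereas claudin-2 forms a channel for small cations and water. In the gut it is found mainly in crypts and is known to rise in inflamed bowel. Myosin light chain kinases act on the actin and myosin ring that pulls on the junctions. The kinase known for this in intestinal epithelium is encoded by Mylk, for which the panel has no row of that name. Mylk3 encodes the cardiac form, which carries MLCK among its synonyms in RefSeq. Of the 3 genes, Cdh1 and Cldn2 therefore encode junction proteins, and Mylk3 does not. The colonic epithelium itself was measured in every pool, since Cdh1 and the goblet cell products Tff3 and Muc2 lay above background in all 8.

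The nCounter instrument counts single RNAs by coloured barcodes, with no amplification step. The deposited values are counts scaled so that the geometric mean of the reference genes Gapdh, Gusb and Pgk1 was the same in all pools. A value equal to the geometric mean of the 6 negative control probes of its pool is a floor and not a measurement. The floors were 1.59 to 6.51 in high salt pools and 1.59 to 3.66 in control pools. Barcode counts could be recovered from the values above the floor and totalled 26893 to 169300 in high salt pools and 13574 to 74270 in control pools. The 95% counting intervals given below are exact Poisson bounds and leave out every other source of error. Scaling adds an error of its own, since Gusb had 33 to 273 counts in high salt pools and 25 to 104 in control pools. Its counting part was 0.033 to 0.106 on the log2 scale, the largest in the control female trio. Cdh1 and Cldn2 were above the floor in all 8 pools and Mylk3 in 5. Single pools lay far from the rest of their diet in some genes: the high salt male trio in Cdh1, the control male trio in Muc2, I-FABP and Reg3g, and the female trios in Cldn1 on both diets and in Nfkb1 on the control diet. Of the 3 genes this touched Cdh1, and the male trios were also the highest high salt and the lowest control pool in Cldn2, so diet differences are given with and without them.

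Of the 3 genes Cldn2 differed most between pools, and the stretch around its RefSeq transcription start is shown here as the sequence context of the gene that the results turn on. It runs from 250 bases before the start to 50 bases after it, at chrX:139800558-139800857 on the plus strand of GRCm38.p6, and is printed 5′ to 3′. Capitals mark TTTATG, a form of the site of caudal-type (CDX) factors, with its first base at -244. They also mark the TATA box, TATAAA, with its first base at -35. A GATA factor site, AGATAA, was searched too, all on both strands and with no overlap among the matches, and these letters are not in this window.
Cldn2: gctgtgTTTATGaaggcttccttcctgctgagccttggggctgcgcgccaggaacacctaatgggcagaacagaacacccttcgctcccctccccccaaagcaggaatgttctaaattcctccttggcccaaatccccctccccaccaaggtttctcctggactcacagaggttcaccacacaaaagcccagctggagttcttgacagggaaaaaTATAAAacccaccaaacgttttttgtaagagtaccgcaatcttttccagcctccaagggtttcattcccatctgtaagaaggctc
Of 32851 promoter windows of this length in the RefSeq table, 11.85% hold the caudal letters, 13.6% the TATA box letters and 11.2% the GATA factor letters on either strand. These matches describe the letters and were not tested as sites. A window was given for 2 of the 3 genes, Cldn2 and Mylk3.

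Cdh1, the gene of E-cadherin, was high and even in all pools, with little difference between diets. It was listed at 5068 in the male trio, 3800.3 in the male pair, 3882 in the female trio and 3877 in the female pair on the high salt diet. The control pools, in the same order, had 4206, 4417, 4151 and 4397. A single high salt pool, the male trio, stood above all others, and the other 3 high salt pools lay below every control pool. The counting interval of that pool, 4979 to 5158, did not overlap that of the pool next to it, whereas the other 7 pools overlapped their neighbours in order of level. On average Cdh1 was 4157 ± 609 on the high salt diet and 4293 ± 134 on the control diet (SD, n = 4 pools each). The log2 difference, high salt minus control, was -0.06 (standard error 0.283, 95% interval -0.69 to 0.57, limma adjusted p = 0.942). Limma draws the error of an even gene towards that of the panel. From the spread of Cdh1 alone the standard error was 0.102, and the two-sided exact permutation test over the 70 assignments of the pools gave p = 0.629. Without the high salt male trio the difference was -0.16 (limma adjusted p = 0.823). In those 7 pools Cdh1 was the 1 gene of 68 (1.47%) lower on the high salt diet without overlap. Another 3 were higher without overlap (4.41%). Leaving out the 1 high pool of Cdh1 fixed its separation in advance, so the separation is no support for a diet difference.

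Cldn2, the gene of the pore-forming claudin-2, was the second lowest of the 68 genes in its diet difference. By p it was only the 14th (limma unadjusted p = 0.161). It did not pass the test, and its pools overlapped widely. On the high salt diet it was listed at 564 in the male trio, 259 in the male pair, 96.2 in the female trio and 68.5 in the female pair. In control pools it had 186, 404, 532 and 361 in the same order. Both female high salt pools lay below all other pools, while the high salt male trio had the top value of all 8, within counting error of the control female trio next to it. The control male trio, in turn, was the lowest of its diet. The values rest on 31 to 1379 recovered counts on the high salt diet and 129 to 388 on the control diet. Counting intervals overlapped between 3 of the 7 pairs of neighbours in order of level and not between the other 4. The intervals of the female high salt pools, 65.4 to 137 and 52.2 to 88.4, overlapped each other but not that of the next pool, 155 to 220.4. Cldn2 averaged 247 ± 228 on the high salt diet and 371 ± 143 on the control diet (SD, n = 4 pools each). Its log2 difference was -0.97 (standard error 0.642, 95% interval -2.39 to 0.46, limma adjusted p = 0.784, two-sided exact permutation p = 0.286).

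**Figure D1:**
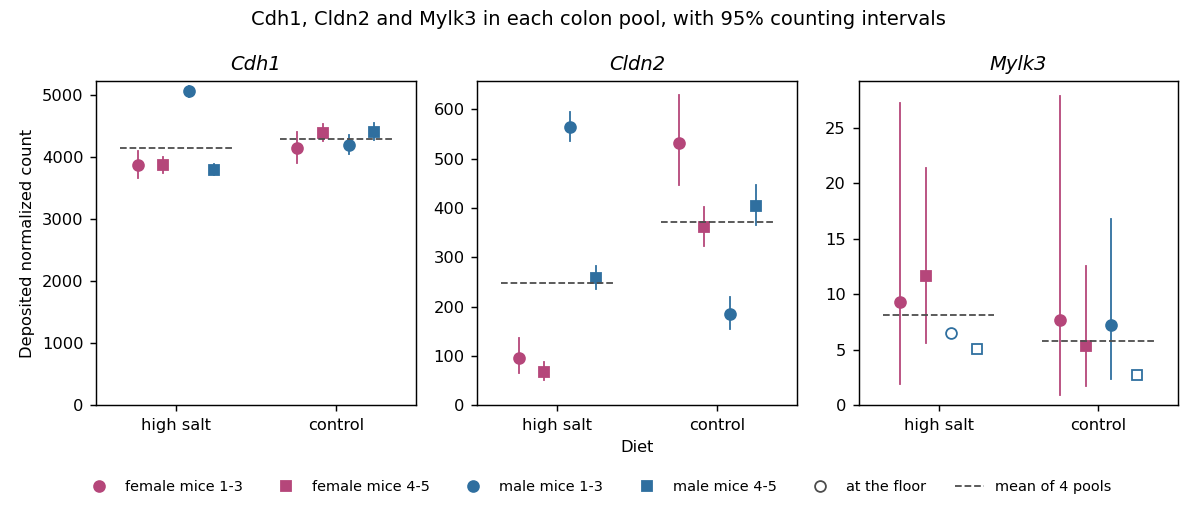
Deposited normalized counts (linear axis from 0) of Cdh1, Cldn2 and Mylk3 in each of the 4 high salt and 4 control pools. Points are pools, vertical lines 95% counting intervals, open symbols values at the floor and dashed lines diet means. Cdh1 lies between 3800.3 and 5068, Cldn2 between 68.5 and 564, and 3 of the 8 Mylk3 values are floors.

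Mylk3 was too close to background for a level to be set in most pools. It had 9.31 in the female trio and 11.6 in the female pair on the high salt diet, and was at the floor, 6.51 and 5.11, in both male high salt pools. Among control pools it had 7.19 in the male trio, 7.71 in the female trio and 5.37 in the female pair, and was at the floor, 2.74, in the male pair. These values stand for 3 and 10 barcodes in the high salt pools and for 5, 2 and 5 in the control pools. The count exceeded the highest negative control probe of its pool in 2 of 4 high salt pools, 3 against 2 and 10 against 7, and in 0 of 4 control pools. In the pools at the floor, up to 15, 9 and 2 counts could be hidden in the high salt male trio, the high salt male pair and the control male pair, which correspond to scaled values of 6.14, 4.86 and 2.08. With floors taken as values, Mylk3 averaged 8.14 ± 2.90 on the high salt diet and 5.75 ± 2.24 on the control diet (SD, n = 4 pools each). The log2 difference was 0.45 (standard error 0.389, limma adjusted p = 0.912, two-sided exact permutation p = 0.286), and 0.22 with 1 floor, the highest, applied to every pool (limma adjusted p = 0.856). A difference in Mylk3 between diets was thus not detectable at this depth and background.

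None of the 3 genes was among the genes called between diets, and neither was any other: 0 of 68 passed an adjusted p of 0.05 in limma (0%), and 3 had an unadjusted p under 0.05 (4.41%). In all 8 pools, 0 of the 68 genes were lower (0%) and 1 was higher (1.47%) on the high salt diet without overlap. Leaving out both male trios was an alternative chosen after the data were seen. It removes the highest high salt pool of Cldn2 and of Cdh1 and the lowest control pool of Cldn2. More negative differences in both genes therefore follow from the choice and are no evidence on the diet. Cldn2 was then listed at 68.5 to 259 in the 3 high salt pools and 361 to 532 in the 3 control pools, and Cdh1 at 3800.3 to 3882 in the high salt and 4151 to 4417 in the control pools, with no overlap in either gene. Of the 68 genes 6 were lower (8.82%) and 10 higher (14.7%) on the high salt diet without overlap in these 6 pools. The log2 difference of Cldn2 was -1.83 (standard error 0.532, limma unadjusted p = 0.00831, adjusted p = 0.0807), that of Cdh1 -0.17 (adjusted p = 0.878) and that of Mylk3 0.65 (adjusted p = 0.561). In that fit 12 genes had an unadjusted p under 0.05 (17.6%) and 6 an adjusted p under 0.05 (8.82%), none of them among the 3.

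Within each pool Cldn2 was set against Cdh1, which leaves out the scaling of the pool and follows the claudin relative to the adhesion gene of the same epithelium. Probes differ in efficiency, so the ratio itself has no absolute meaning, and only its change between pools was read. Cldn2 was 11.1%, 6.81%, 2.48% and 1.77% of the Cdh1 value in the male trio, male pair, female trio and female pair on the high salt diet. The control pools had 4.41%, 9.15%, 12.8% and 8.21% in the same order. Both female high salt pools again lay below all others, and the male pools of the diets overlapped. The log2 ratio differed by -0.91 between diets (standard error 0.693, two-sided exact permutation p = 0.257), close to the -0.97 of Cldn2 itself, and by -1.66 without both male trios. In that case p was 0.1, the smallest that 3 pools against 3 allow. The pools left out held the highest high salt and the lowest control ratio, so the shift to -1.66 also follows from the choice. Mylk3 relative to Cdh1 had a log2 difference of 0.51 (standard error 0.406, exact permutation p = 0.257) with floors taken as values.

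**Figure D2:**
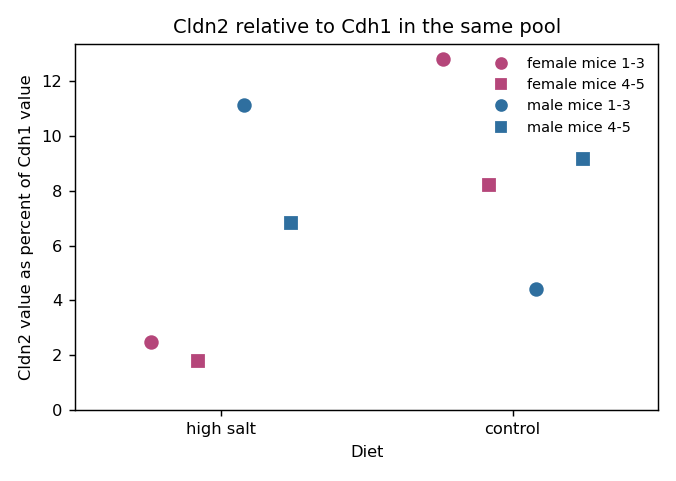
Cldn2 value as a percent of the Cdh1 value of the same pool (linear axis from 0), by diet. Points are pools, coloured by sex, with circles for trios (mice 1 to 3) and squares for pairs (mice 4 and 5). The female high salt pools sit at 2.48% and 1.77%, below the other 6 pools, which run from 4.41% to 12.8%.

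The estimated diet differences of Cldn2 had opposite signs in the sexes. Neither passed the adjusted threshold, and the male sign rests on the male trios. In female pools its log2 difference between diets was -2.42 (standard error 0.582, 95% interval -3.76 to -1.08, limma unadjusted p = 0.00308, adjusted p = 0.128). In male pools it was 0.48 (standard error 0.582, 95% interval -0.86 to 1.82, adjusted p = 0.983). The male trios had 564 on the high salt and 186 on the control diet. The male pairs went the other way, with 259 and 404, so no reversal between the sexes can be read from these pools. Cdh1 had -0.14 in female and 0.03 in male pools (standard error 0.404 each), and Mylk3 had 0.61 in female and 0.29 in male pools (standard error 0.503 each). The interaction of diet and sex, female minus male, was -2.90 for Cldn2 (standard error 0.824). It had the smallest p of the 68 genes (unadjusted p = 0.00765) and did not pass the adjusted threshold (limma adjusted p = 0.246). By this contrast 0 genes passed the adjusted threshold (0%) and 6 had an unadjusted p under 0.05 (8.82%). With each pool left out in turn, which leaves 1 group with a single pool, the interaction of Cldn2 ran from -3.46 to -2.33. The interaction was -0.17 for Cdh1 (standard error 0.571, adjusted p = 0.976) and 0.32 for Mylk3 (standard error 0.712, adjusted p = 0.951). Each sex had 2 pools per diet, so these errors borrow from the whole panel. Female high salt and female control pools did not overlap in any of the 3 genes: Cdh1 and Cldn2 were lower, as were 11 of 68 genes (16.2%), and Mylk3 was listed higher, as were 16 of 68 (23.5%), although female counting intervals of the diets overlapped in Mylk3 and, with the control trio, in Cdh1. In the female fit 0 genes passed the adjusted threshold (0%) and 9 an unadjusted p of 0.05 (13.2%).

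Of 4 marker sums, 2 did not overlap between the female pools of the diets and 2 did. Of the 68 single genes, 11 were lower (16.2%) and 16 higher (23.5%) without overlap in these pools. A lack of overlap between 2 pools and 2 was thus common. The sum of the 3 epithelial markers, Cdh1, Tff3 and Muc2, was 50433 to 59335 in female high salt and 27488 to 28847 in female control pools. Muc2, the mucin of goblet cells, made this difference, with 26688 to 36237 in female high salt and 3373 to 4074 in female control pools, while Tff3 overlapped, with 19216 to 19869 in female high salt and 19018 to 21323 in female control pools. The summed level of 4 markers of small intestine and Paneth cells (Defcr1, Lyz1, I-FABP and Reg3g) was 4391 to 5385 in female high salt and 692 to 1250.4 in female control pools. I-FABP, the fatty acid binding protein of enterocytes, made up most of the difference in that sum, with 3808 to 4297 in female high salt and 316 to 574 in female control pools. Lyz1, the Paneth cell lysozyme, overlapped, with 286 to 461 in female high salt and 340.4 to 586 in female control pools. Reg3g did not, with 270 to 625 in female high salt and 32.2 to 88.7 in female control pools. Defcr1, the Paneth cell defensin, was a floor value in 7 pools, and the other 3 markers of the list were above the floor in all. The sum of 4 neuronal and glial markers (PGP9.5, S100BETA, GFAP and SOX10) was 129.9 to 182 in female high salt and 54.8 to 148 in female control pools, with PGP9.5 at the floor in both female high salt pools. That of 4 myeloid markers (CD11b, CD11C, CCR2 and Cd86) was 80.2 to 113 in female high salt and 60.1 to 200.4 in female control pools. Inside these sums S100BETA, GFAP and CD11b were higher in female high salt pools without overlap, and the other members overlapped. In male pools all 4 sums overlapped between the diets. The epithelial sum was 42130 to 68703 in male high salt and 29669 to 85042 in male control pools. That of small intestine and Paneth cells was 1812 to 3850 in male high salt and 980 to 3468 in male control pools. The part of the marker sets in the difference of Cldn2 was not tested.

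**Figure D3:**
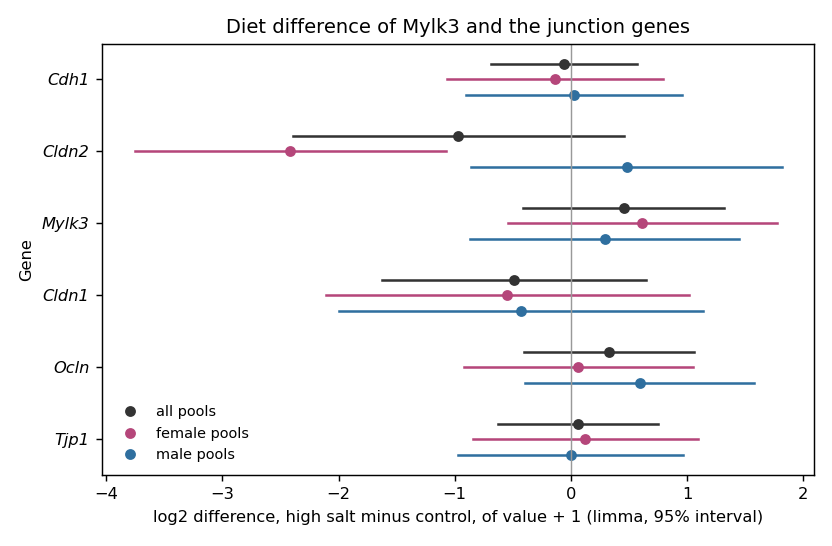
Log2 difference between diets, high salt minus control, of the value plus 1 for Mylk3 and the 5 junction genes of the panel, in all pools, in female pools and in male pools. Points are limma estimates and lines their 95% intervals. The interval of Cldn2 in females, -3.76 to -1.08, is the one interval of the 18 that lies wholly on one side of 0.

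Between the sexes, with diet as a covariate, none of the 3 genes passed the adjusted threshold. The log2 difference, male minus female, was 0.77 for Cldn2 (standard error 0.633, limma adjusted p = 0.523), 0.10 for Cdh1 (standard error 0.246, adjusted p = 0.877) and -0.59 for Mylk3 (standard error 0.328, adjusted p = 0.361). With each pool left out in turn Cldn2 ran from 0.26 without the high salt male trio to 1.29 without the control male trio (limma unadjusted p = 0.0483, adjusted p = 0.213). These trios were its highest and lowest male pools, at 564 and 186, so both shifts follow from the choice. Mylk3 ran from -0.85 without the control male trio (limma unadjusted p = 0.0225, adjusted p = 0.213) to -0.40 without the control male pair. Over the panel 0 genes passed the adjusted threshold (0%) and 9 had an unadjusted p under 0.05 (13.2%). Mylk3 was at the floor in 3 of 4 male and 0 of 4 female pools, so its male values are mostly floors. The control male trio was the 1 male pool above the floor. Without it the male values of Mylk3 are all floors, and that fit compares no measured male level.

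The 3 genes differed in both level and spread. In every pool the listed value of Cdh1 was the highest of the 3 and that of Mylk3 the lowest. Cdh1 was listed at 7.80 to 56.6 times the value of Cldn2. Over all pools the mean value was 4225 for Cdh1, 309 for Cldn2 and 6.95 for Mylk3, the 3rd, 16th and 57th of the 68 targets. Each RNA is counted once whatever its length, but probes are not equally efficient, so this order is of barcode counts and not of RNA molecules. Within a diet the SD on the log2 scale was 0.144 for Cdh1, 1.07 for Cldn2 and, floors included, 0.513 for Mylk3. Among the 47 targets above the floor in all pools, whose median was 0.653, Cdh1 had the lowest SD and Cldn2 the sixth highest. Tlr4 came after Cdh1, with 0.213. The reference genes, which the scaling ties together, had SDs of 0.0934 (Gapdh), 0.134 (Gusb) and 0.104 (Pgk1). Counting of their own barcodes would give 0.0283 for Cdh1 and 0.137 for Cldn2. The counting part of the scaling, 0.033 to 0.106 by pool, comes on top of this. Cldn2 spread between pools by more than either. For Cdh1 the high salt pools gave 0.198 and the control pools 0.0451, and for Cldn2 the high salt pools gave 1.38 and the control pools 0.643. Without the high salt male trio the SD was 0.0366 for Cdh1 and 0.799 for Cldn2. For Cdh1, 0.0451 and 0.0366 lie within the range of the scaling part. Its spread beyond counting error therefore rests on the high salt male trio.

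**Figure D4:**
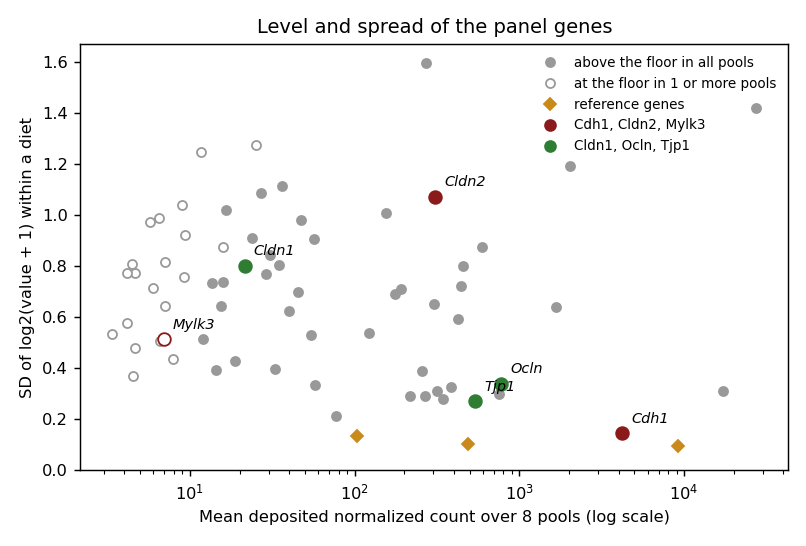
Mean deposited count over the 8 pools (log axis) against the SD of log2 of the value plus 1 within a diet, for the 68 targets and 3 reference genes. Red points are Cdh1, Cldn2 and Mylk3, green points Cldn1, Ocln and Tjp1, open symbols genes at the floor in at least 1 pool. Cdh1 (0.144) lies just above the reference genes (0.0934 to 0.134), and Cldn2 (1.07) above the median of the 47 targets over the floor in all pools (0.653).

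The other junction genes of the panel were Cldn1, a sealing claudin, Ocln, the tight junction protein occludin, and Tjp1, the scaffold protein ZO-1. Of the 5 junction genes together, 2 had a positive and 3 a negative difference, 0 passed the adjusted threshold, and the median was -0.06, beside 0.18 over the 68 targets. With Mylk3 added to the list, 3 were positive and 3 negative, with a median of 0.0023. Ocln averaged 868 ± 239 on the high salt diet and 681 ± 123 on the control diet (log2 difference 0.33, standard error 0.329). Tjp1 averaged 551 ± 87.3 on the high salt diet and 531 ± 106 on the control diet (0.06, standard error 0.309). Cldn1 averaged 16.7 ± 9.58 in high salt pools and 26.2 ± 21.1 in control pools (SD, n = 4 pools each throughout), with a difference of -0.49 (standard error 0.512). Ocln and Cldn1 had an adjusted p of 0.912 in limma and Tjp1 one of 0.942. Cldn1 was measured with few barcodes, 10 to 30 in high salt pools and 12 to 15 in control pools. Its highest values, 31.0 and 57.8, were those of the female trios on either diet, from 10 and 15 barcodes, in the pools where a single barcode is worth most, 3.10 and 3.85. Cldn2 minus Cldn1 on the log2 scale differed by -0.48 between diets (standard error 0.972, exact permutation p = 0.6).

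Over the 68 targets, 44 had a positive and 24 a negative difference between diets, with a median of 0.18. Of 4 genes known to act on junctions, 3 had a positive and 1 a negative difference, with a median of 0.10, and 0 passed the adjusted threshold. F2rl1, the protease-activated receptor PAR2, had 0.31 (standard error 0.311, limma adjusted p = 0.912), and Hif1a, the factor of the response to low oxygen, had -0.94 (standard error 0.548, adjusted p = 0.628). Of 4 epithelial products (I-FABP, Muc2, Tff3 and Reg3g), 3 had a positive and 1 a negative difference, with a median of 1.85 and 0 past the adjusted threshold. I-FABP alone had an unadjusted p under 0.05. I-FABP, Muc2 and Reg3g spread widely within a diet, with log2 SDs of 1.20, 1.42 and 1.60.

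Across the 8 pools, the genes whose log2 values followed Cldn2 most closely were NFAT (as the panel names it, Pearson r = 0.80, Spearman rho = 0.79), Cdh1 (r = 0.70, rho = 0.69) and Hif1a (r = 0.64, rho = 0.62). For Cdh1 they were Cldn2 (r = 0.70), Hif1a (r = 0.61, rho = 0.55) and NFAT (r = 0.47, rho = 0.33). The gene farthest from Cldn2 was SUBP (r = -0.89, rho = -0.76). Mylk3, floors included, was followed by NOS (r = 0.86, rho = 0.88), SUBP (r = 0.81, rho = 0.83) and GDNF (r = 0.81, rho = 0.79), and its r with Cldn2 was -0.64 (rho = -0.52). These values describe 8 pools that share their scaling and differ in depth, and were picked as the extremes among the 47 targets that no pool had at the floor.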

How the data were processed

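RNA of whole colon from 20 mice was pooled into 8 samples and run on a custom NanoString panel. Using nSolver 4.0, the authors turned barcode counts into the deposited signal, normalized to the reference genes, with low values set to the floor. Its further settings are not stated in the labels or methods. The 12 control probes are unscaled counts. The worth of 1 barcode was estimated for each pool, and 487 of 487 values over the floor (100%) came out as a whole number of barcodes within 0.006. The 81 values at the floor give upper bounds only.

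Diets were compared with limma 3.58.1 in R 4.3.3 (lmFit, eBayes) on log2 of the value plus 1, which understates the change of low genes, with Benjamini-Hochberg adjustment over the 68 targets. Sex was fitted with diet as a covariate, and the interaction over 4 groups. Single genes and ratios had two-sided exact permutation tests, whose smallest p is 0.0286 for 4 pools against 4. Nothing in the labels gives a batch. The fit was tested on simulated independent normal values, without floors or errors shared by a pool. That run does not bear on floor values or on single pools far from the rest. The named genes were the 3 genes, the lists of junction, acting and epithelial genes, and the 3 genes of most similar pattern. The genes and lists were chosen with earlier results of these data known. Alternatives covered pseudocounts of 0.5 and 10, scaling, filters, floors, covariates, weights, variance model, the methods' unpaired test, voom on recovered counts, and each pool left out. Promoter sequence and synonyms are from RefSeq (GRCm38.p6). No source used here names the panel's genome build. Python 3.11.15, pandas 2.3.3 and scipy 1.17.1 were used elsewhere.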

Additional observations from a re-analysis of the deposited data

Results flagged for a closer look

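In 7 of the 35 groups of 4 pools that were examined, a single pool lay far from the other 3. About 1.75 would be expected for independent groups of normally distributed values. The values here were not logged and the genes share their pools, so that number is a rough guide only. Cdh1 was 5068 in the high salt male trio, with 3800.3 to 3882 in the rest of that diet. Cldn1 was 31.0 in the high salt female trio, with 10.8 to 12.8 in the rest, and 57.8 in the control female trio, with 14.6 to 17.3 in the rest. Nfkb1, a transcription factor of inflammation, was also high in the control female trio, at 397, with 219 to 243 in the rest. In the control male trio I-FABP was 2873 against 316 to 574, Muc2 was 62763 against 3373 to 10865, and Reg3g was 387 against 29.2 to 88.7. All 7 values are part of the comparisons over 8 pools, and fits without the male trios leave out those of these pools.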

How the results depend on the processing

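The sign of the diet difference held for Cdh1, Cldn2 and Mylk3 under all alternatives that could give a value, and none of the 3 passed an adjusted p of 0.05 (0.823 to 0.999 for Cdh1, 0.0807 to 0.983 for Cldn2, 0.561 to 0.987 for Mylk3). Mylk3 has no value under the filters on a mean of 20 or on the floor, or in voom. Pool by pool left out, Cdh1 spanned -0.16 to -0.02, Cldn2 -1.53 (without the high salt male trio) to -0.52 (without the high salt female pair), Mylk3 0.19 (without the control male pair) to 0.63, and the ratio of Cldn2 to Cdh1 -1.37 to -0.49. In the same way the sex difference of Cdh1 spanned -0.0042 to 0.16 and its interaction -0.37 to 0.043, both turning sign without the high salt male trio, and the interaction of Mylk3 spanned -0.24 (without the control male trio) to 0.89. The cause was not tested. The number of genes past the adjusted threshold was 0 to 5 (5 without the control male trio) and 6 without both male trios, and at an unadjusted p it was 1 to 12. With the replicate block of sex and mouse numbers it was 0, and Cldn2 had -0.97 (adjusted p = 0.768). Deviations of same-numbered pools correlated at -0.524 to 0.384, with no common sign. The main fits did not treat the numbers as pairs, and so few correlations cannot settle whether they are. Few barcodes limit Mylk3 and Cldn1.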
